A study of Mus musculus with 3 samples.

Results

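Copy number at Slc1a1, Slc1a2 and Slc1a3, the genes of the glutamate transporters EAAC1, GLT1 and GLAST, was measured in 3 neurosphere lines against mouse liver. The members were the array probes that carry these gene names, with all probes within 500 kb on each side. They are 3 of 21138 named genes on the array, with 27 probes of their own and 257 probes in the 3 windows, out of 170305 probes. Slc1a3 was selected on the log2 ratios of these same arrays, because a stretch around it on chromosome 15, from 8379281 to 8863277 (mm9), was raised. Values of that stretch, of Slc1a3 and of its window are therefore given as a description with no test. Slc1a1 and Slc1a2 were taken as its relatives and could be tested.

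Neurospheres are clusters of cells that grow in suspension, and these came from mouse tumours that were resistant to an inhibitor of CSF1R, the receptor on which macrophages and microglia depend. They were taken at passages 2 to 3. Genomic DNA of each line, labelled with Cy5, was hybridised together with mouse liver DNA, labelled with Cy3, on an oligonucleotide array. The labels used here give no genotype, strain, sex, age, drug or dose, and no untreated or drug-sensitive line, so the 3 lines form 1 group with liver DNA in the other channel. Line 1 has an animal number of its own, and lines 2 and 3 share another animal number and 1 liver label, so 2 animals stand behind 3 lines and a p-value here reflects the spread among these lines alone. All arrays lay on 1 slide with the same dye order, so a dye or slide effect common to the arrays cannot be told apart from a difference between line and liver. A value is log2 of line over liver, set to a median of 0 over the autosomes of each array. A change to 3 copies, against 2 in liver, in every cell would give 0.585. The spread of single probes was estimated from the differences between neighbouring probes. It was 0.384 in line 1, against 0.232 and 0.238 in lines 2 and 3, so the array of line 1 was the least precise.

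Glutamate is the main excitatory transmitter of the brain, and transporters of the SLC1 family clear it from the space around synapses by moving it into cells together with sodium. GLAST, encoded by Slc1a3, is a transporter of astrocytes and radial glia, and is often used as a marker of glial progenitors. GLT1, encoded by Slc1a2, carries most of the uptake into astrocytes of the adult forebrain, and EAAC1, encoded by Slc1a1, is found mainly in neurons and also in kidney and intestine.

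The raised stretch was read by probes of 60 bases or slightly fewer, and the sequences below are shown because they mark its borders and its highest values. Each is written as the deposited array design gives it, in which the strand is not stated. Capitals mark the longest run of 1 base in that probe, or the first such run where several are equally long. The last probe before the stretch lies at chr15:8362847-8362906 and the first in it at chr15:8379281-8379340, both named for Nipbl, which encodes the loader of cohesin onto chromosomes. The high probe of Slc1a3 lies at chr15:8650057-8650116 and a second high probe, with no gene name, at chr15:8814739-8814798. The last probe of the stretch lies at chr15:8863218-8863277 and the first after it at chr15:8893038-8893097, both with no gene name.
Last probe before the stretch: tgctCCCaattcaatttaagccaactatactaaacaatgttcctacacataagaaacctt
First probe of the stretch: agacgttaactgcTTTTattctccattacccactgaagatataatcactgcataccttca
High Slc1a3 probe: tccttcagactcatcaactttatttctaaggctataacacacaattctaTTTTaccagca
High probe with no gene name: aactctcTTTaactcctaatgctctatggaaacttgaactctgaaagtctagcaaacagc
Last probe of the stretch: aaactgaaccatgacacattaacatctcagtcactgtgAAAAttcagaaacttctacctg
First probe after the stretch: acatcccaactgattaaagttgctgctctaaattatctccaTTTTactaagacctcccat
These 6 probes hold runs of at most 4 equal bases. Runs of at least 4 stood in 23 of the 28 probes of the stretch and in 68.2% of all probes on the array. Mean GC content was 36.6% in the stretch and 36.8% over all autosomal probes.

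The 9 probes named for Slc1a3 span chromosome 15 from 8584487 to 8657907 (mm9), and their place in exons or introns was not analysed here. Their means were 0.31, 0.38 and 0.48 in lines 1, 2 and 3, or 0.39 ± 0.086 over lines (SD, n = 3). Each line was above liver, and 9, 9 and 8 of the 9 probes lay above 0 in lines 1, 2 and 3. The probes were uneven, with a SD over probes of 0.31, 0.42 and 0.54. Their medians were lower than their means, at 0.14, 0.24 and 0.396. A mean of at least 0.2 in all 3 lines, as at Slc1a3, was found for 2.80% of genes. Of 9462 genes with at least 3 probes, 47 had a mean as high as that of Slc1a3 or higher, Slc1a3 included, which is 0.497%.

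Along the gene, raised probes alternated with probes near 0, and 4 of the 9 were at 0.2 or more in all lines. The probe at 8584487 had 0.70, 0.46 and 0.66 in lines 1, 2 and 3, and that at 8610819 had 0.699, 0.35 and 0.55. Between them, the probe at 8591415 had 0.019, 0.083 and 0.066, and that at 8600288 had 0.14, 0.070 and -0.011. The probe at 8626164 had 0.33, 0.21 and 0.396. Further along, the probe at 8634259 had 0.028, 0.24 and 0.14 and that at 8643539 had 0.097, 0.36 and 0.56, so both were lowest in line 1. The probe at 8650057, printed above, had 0.71 in line 1, 1.45 in line 2 and 1.77 in line 3, the highest Slc1a3 value in each line. The last probe, at 8657848, had 0.057, 0.21 and 0.19. Without the probe at 8650057 the gene means were 0.26, 0.25 and 0.32, or 0.27 ± 0.038 (SD, n = 3), and the order of the lines changed, with line 2 lowest. That probe was singled out after its values were seen.

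**Figure D1:**
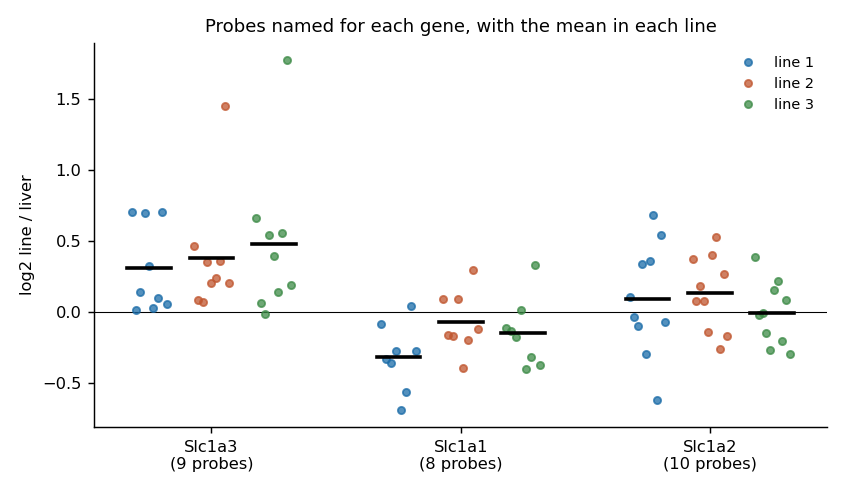
Log2 of line over liver for each probe named for Slc1a3 (9 probes), Slc1a1 (8) and Slc1a2 (10), from left to right along the gene, with points for probes and bars for the mean in each line. Slc1a3 means are 0.31, 0.38 and 0.48 in lines 1, 2 and 3, and the probe at 1.45 in line 2 and 1.77 in line 3 stands apart from the other 8.

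The raised stretch ran beyond the gene on both sides. It covers 484.0 kb with 28 probes, whose means were 0.28, 0.31 and 0.403 in lines 1, 2 and 3, or 0.33 ± 0.065 over lines (SD, n = 3). All 3 means were under the 0.585 of 3 copies against 2. Chromosome 15 as a whole averaged 0.0021, 0.065 and 0.065 in lines 1, 2 and 3. Centred on the median of its own chromosome, the stretch averaged 0.28, 0.26 and 0.35, with line 2 lowest. Of the 28 probes, 25, 26 and 26 lay above 0 in lines 1, 2 and 3, and 28, 27 and 28 were well above background in both channels. The remaining 53 probes of the Slc1a3 window averaged -0.014, 0.00054 and -0.042, which follows in part from how the stretch was drawn. As a background, 0.157% of the 160639 runs of 28 neighbouring autosomal probes had a mean of at least 0.2 in all 3 lines. Runs as high as the stretch or higher numbered 212 in line 1, 27 in line 2 and 1, the stretch itself, in line 3. The stretch was chosen for being high, so its place among these runs is a description and carries no test.

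Within the stretch the values were uneven, and they are given here in 3 pieces drawn after they were seen. The first 6 probes, from 8379281 to 8492271, averaged 0.35, 0.25 and 0.35 in lines 1, 2 and 3. They take in 2 probes of Nipbl and 1 of the transcript AK132654, which had 0.68, 0.41 and 0.45. The next 3 probes, from 8529971 to 8568004, carry no gene name and averaged -0.36, -0.024 and 0.049 over the same lines. They were thus lower than the pieces on both sides, most clearly in line 1, the least precise array. In the trace given below, the interval of line 1 ran across them with normexp, loess and the authors' value table. Whether the stretch is broken there was not tested. The 19 probes from 8575756 on, which hold all of Slc1a3, averaged 0.35, 0.38 and 0.48. Of these, the 9 probes past Slc1a3 averaged 0.39, 0.38 and 0.47, close to the values of the gene itself. They include the 3 probes of the transcript AK043290, with 0.32, 0.21 and 0.28.

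At its left border the stretch divides Nipbl. The borders were drawn on these same ratios, so the contrast across them was set in part by that choice. In the trace given below, the intervals of lines 1 and 2 start past Nipbl, at 8575756, and other processing moved that start. The 2 Nipbl probes inside averaged 0.23, 0.25 and 0.51 in lines 1, 2 and 3, and the 13 Nipbl probes outside averaged -0.12, -0.054 and -0.030. The last probe outside had -0.090, 0.013 and 0.11, and the first inside had 0.27, 0.25 and 0.54. At the right border the last probe inside had 0.29, 0.196 and 0.28. The first probe outside had 0.41, 0.11 and 0.082, so line 1 was still raised there and lines 2 and 3 were near 0. Beyond the stretch, the first other named gene on the left, 2410089E03Rik (now Cplane1, a gene of cilium formation), averaged 0.066, 0.090 and -0.035 over 10 probes. Ranbp3l, the first named gene on the right, averaged -0.040, 0.041 and -0.017 over 6 probes.

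**Figure D2:**
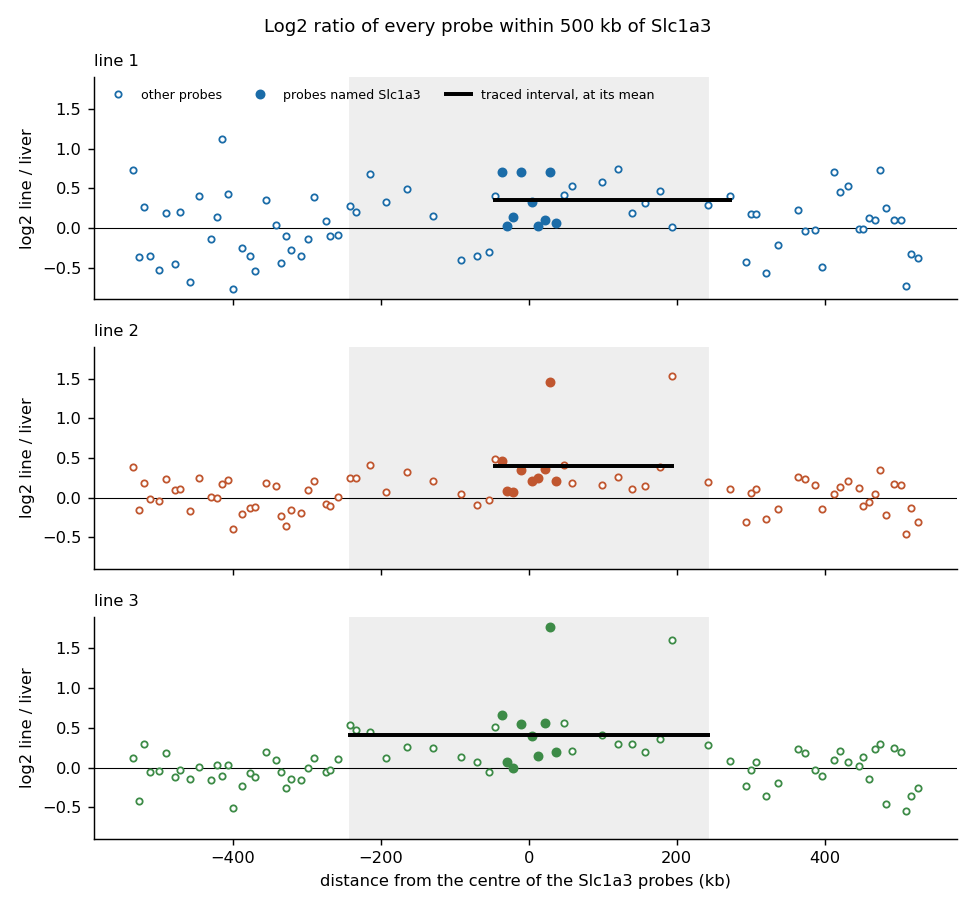
Log2 of line over liver for the 81 probes of the Slc1a3 window against distance in kb from the centre of the Slc1a3 probes, with a panel for each line, filled points for Slc1a3, the stretch shaded and the interval traced in that line as a black bar at its mean. The traced intervals start at the same probe in lines 1 and 2 and start earlier in line 3, with means of 0.36, 0.395 and 0.403 in lines 1, 2 and 3.

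The edges were traced in each line on its own, as the interval of at least 10 probes holding a Slc1a3 probe that gave the largest drop in squared error within 5 Mb of the gene. In line 1 the interval ran from 8575756 to 8893097, 317 kb with 20 probes at a mean of 0.36, against -0.026 in the rest of the span. In line 2 it ran from 8575756 to 8814798, 239 kb with 18 probes at 0.395, against 0.029 in the rest. In line 3 it ran from 8379281 to 8863277, 484.0 kb with 28 probes at 0.403, against 0.036 in the rest, so the stretch given above is the interval of line 3. The mean of the 3 lines gave 8575756 to 8863277, 288 kb with 19 probes at 0.405. All these intervals hold every Slc1a3 probe and the AK043290 probes. Of them, the interval of line 3 alone takes in Nipbl and AK132654, which other processing changed. The step accounted for 2.76%, 5.41% and 6.80% of the squared error in the span in lines 1, 2 and 3. That share depends on the span, and with 2 Mb on each side the same intervals accounted for 6.05%, 12.9% and 17.1%. In both spans, the step left most of the variation between probes unaccounted for.

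The edges depended on the processing, above all the left edge of lines 1 and 2. With normexp background correction the intervals were 644 kb, 486 kb and 500.4 kb in lines 1, 2 and 3, and with loess they were 561.5, 408 and 436 kb. In the authors' value table they were 570.0, 492 and 436 kb. With normexp, loess and the value table, line 1 started within Nipbl, at 8313464, 8331596 and 8323064. Line 2 started within Nipbl in that table, at 8323064, and at AK132654 with normexp and loess, at 8406844. The right edge moved to 8957402 in line 1 and 8893097 in line 2 with normexp. In line 3 it moved to 8814798 with loess and in the value table. With the 2 high probes left out, line 2 gave the same 484.0 kb as line 3, at means of 0.22 in line 2 and 0.30 in line 3. In a span of 10 Mb on each side, line 2 gave an interval of 9911 kb at a mean of 0.044, while lines 1 and 3 kept their intervals. The mean over the fixed 28 probes moved less than the edges, and lay between 0.27 and 0.34 over lines in 10 alternative treatments of the values.

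A pair of probes stood far above the others of the stretch in lines 2 and 3. The high Slc1a3 probe had 0.71, 1.45 and 1.77 in lines 1, 2 and 3, and the high probe with no gene name had 0.0071, 1.53 and 1.61. Probes at 1 or more in both lines 2 and 3 and under 0.3 in line 1, as the second of these, made up 0.0247% of the array (42 probes). Probes at 1.4 or more in both lines 2 and 3 made up 0.0206% (35 probes). Both had 1 spot on each array and were dim in the liver channel. In line DNA they were also below the median spot, which had 1054, 1037 and 1048 in lines 1, 2 and 3. There the high Slc1a3 probe had 403, 436 and 661 and the second had 407, 516 and 648. The liver intensity of the high Slc1a3 probe was 246, 160 and 194 in lines 1, 2 and 3, where the median spot had 1047, 1034 and 1033, and in line 2 it was not well above background. For the second probe the liver intensity was 405, 179 and 213. Only 1.06% of spots in line 2 and 1.67% in line 3 were as dim in liver as the high Slc1a3 probe. With normexp, which treats dim spots differently, the high Slc1a3 probe had -0.18, 0.30 and 0.89 and the second had -0.34, 0.52 and 0.96. Without both, the stretch averaged 0.27, 0.22 and 0.30, or 0.27 ± 0.041 (SD, n = 3), with 23, 24 and 24 of 26 probes above 0.

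Line DNA and liver DNA can be looked at separately, because the same probe was read on each array. Over the 28 probes, line 2 minus line 1 was -0.0049 ± 0.15 in line DNA and -0.039 ± 0.34 in liver DNA (log2 intensity, SD over probes). Line 3 minus line 1 was 0.11 ± 0.25 in line DNA and -0.0031 ± 0.31 in liver DNA. Without the 2 high probes, line DNA differed by -0.024 in line 2 and 0.066 in line 3, and liver DNA by 0.026 and 0.044, so the sign of the liver difference turned. The mean shifts were all smaller than the spread over probes, and the liver channel varied more than the line channel. At the high Slc1a3 probe, line DNA differed from line 1 by 0.13 in line 2 and by 0.72 in line 3, while liver DNA differed by -0.61 and -0.33. At the second high probe, line DNA differed by 0.36 and 0.68, and liver DNA by -1.16 and -0.91. At that probe the gap between the lines was therefore larger in the liver channel than in the line channel. Liver DNA of lines 2 and 3 has the same label, and the part that the liver DNA has in these values was not tested.

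**Figure D3:**
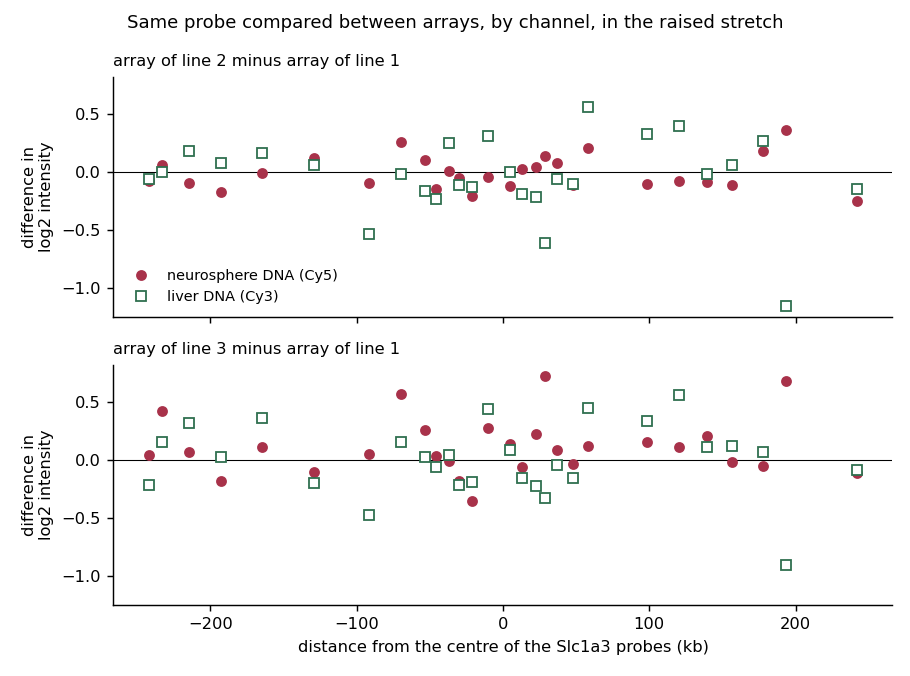
Difference in log2 intensity of the same probe between arrays, line 2 minus line 1 (top) and line 3 minus line 1 (bottom), for neurosphere DNA (filled circles) and liver DNA (open squares), against distance in kb from the centre of the Slc1a3 probes. Most points lie near 0, and the lowest liver values, -1.16 and -0.91, belong to the high probe with no gene name.

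Between arrays, the pattern over the 28 probes was most alike in lines 2 and 3, with r = 0.96, against 0.32 for lines 1 and 2 and 0.35 for lines 1 and 3. Without the 2 high probes r was 0.83 for lines 2 and 3, 0.71 for lines 1 and 2 and 0.63 for lines 1 and 3. Over all 161460 autosomal probes r was 0.82, 0.70 and 0.64 for the same pairs. The arrays share probe sequences, dyes and slide, and lines 2 and 3 share the liver label, and these correlations over probes are a description of the arrays.

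Slc1a1 did not share the raised values. Its 8 probes span chromosome 19 from 28915022 to 28983841, and their means were -0.31, -0.069 and -0.14 in lines 1, 2 and 3, or -0.18 ± 0.13 (SD, n = 3). All 3 lines were below liver, with 1, 3 and 2 of 8 probes above 0, and the mean passed the threshold (limma adjusted p = 0.0435). Of the 9462 genes tested, 24.1% passed in either direction and 9.95% passed below 0, so a call of this kind was common on these arrays. No pair of lines alone kept it (limma adjusted p of 0.0512 to 0.0908), and counting lines 2 and 3 as 1 animal gave a limma adjusted p of 0.0862. Loess took the mean to -0.030 and the authors' value table to -0.044, with limma adjusted p of 0.663 and 0.453. Normexp turned it to 0.023, with a limma adjusted p of 0.741, so its sign depended on the processing. The normexp values start from raw spot means, so they also lack the authors' detrending and dye normalisation.

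The lowest Slc1a1 probe, shown because it holds the longest run of 1 base among the printed probes, lies at chr19:28948838-28948897 and had -0.69, -0.39 and -0.40 in lines 1, 2 and 3. Capitals mark that run, and 1.10% of all probes held a run of 8 or more equal bases.
Lowest Slc1a1 probe: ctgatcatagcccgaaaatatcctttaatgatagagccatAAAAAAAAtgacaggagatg
The next probe along the gene, at 28960428, had -0.56, -0.19 and -0.32, and the highest, at 28975400, had 0.047, 0.29 and 0.33. The other 5 probes lay between -0.37 and 0.095. Line 1 was the lowest line at 6 of the 8 probes. Over these probes, line 2 minus line 1 was 0.028 ± 0.094 in line DNA and -0.22 ± 0.093 in liver DNA, and line 3 minus line 1 was 0.0021 ± 0.16 and -0.16 ± 0.18 (log2 intensity, SD over probes). Most of the gap between line 1 and the other lines at Slc1a1 thus lay in the liver channel. The window around Slc1a1, of 94 probes, averaged -0.0057, 0.038 and 0.018, or 0.017 ± 0.022 (SD, n = 3; limma adjusted p = 0.577). Traced in the same way, Slc1a1 gave intervals of 7335, 6416 and 5978 kb at means of 0.0059, -0.020 and -0.0096 in lines 1, 2 and 3. The rest of the span averaged -0.086, 0.087 and 0.073, so the step went up in line 1 and down in lines 2 and 3. The trace returns only the best interval, so a shorter step at the gene could go unseen.

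Slc1a2 lay near the liver level in its own probes. Its 10 probes span chromosome 2 from 102503476 to 102621159, with means of 0.093, 0.14 and -0.0081 in lines 1, 2 and 3, or 0.073 ± 0.074 (SD, n = 3; limma adjusted p = 0.247). The mean was 0.042 without line 2, 0.11 without line 3, 0.031 with normexp, 0.041 with loess and 0.021 in the authors' value table, and passed in none of these. Lines 1 and 2 were above liver and line 3 was not, with 5, 7 and 4 of 10 probes above 0. Single probes ran from -0.61 to 0.68 in line 1, from -0.26 to 0.53 in line 2 and from -0.29 to 0.39 in line 3. The probe at 102589122 was the highest in lines 1 and 2, with 0.68 and 0.53, and had 0.22 in line 3. The probe at 102597761 had -0.61, -0.26 and -0.20, so adjacent probes of this gene lay on opposite sides of 0 in every line.

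The Slc1a2 probe at chr2:102566615-102566674 is shown because the array carries it on 5 spots, which measures the error of a spot at a transporter gene. Capitals mark the first of its longest runs of 1 base.
Slc1a2 probe on 5 spots: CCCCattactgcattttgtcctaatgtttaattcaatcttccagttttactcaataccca
Its spots ran from -0.48 to -0.17 in line 1, from -0.21 to -0.045 in line 2 and from -0.34 to -0.17 in line 3, with means of -0.295, -0.14 and -0.27. The SD over spots was 0.12, 0.063 and 0.071. Every spot was below 0, while the mean of the gene did not pass the test. Over the probes with at least 5 spots the median SD was 0.13, 0.087 and 0.074 in lines 1, 2 and 3.

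The window around Slc1a2, of 82 probes, averaged 0.11, 0.082 and 0.085, or 0.093 ± 0.016 (SD, n = 3; limma adjusted p = 0.000598), above liver in 3 of 3 lines. Of 21096 gene windows, 44.0% passed the limma threshold, 33.7% passed it above 0, and 11.8% had a mean as high as this or higher. The window mean passed with each pair of lines (limma adjusted p of 0.00637 to 0.0114). Traced in the same way, Slc1a2 gave 872 kb at 0.18 in line 1, and 5460 and 5193 kb at 0.057 and 0.074 in lines 2 and 3. All these intervals were longer and lower than the 239 to 484.0 kb at 0.36 to 0.403 traced at Slc1a3. That stretch was selected for its height, so the difference carries no test.

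Set side by side, the own probes of Slc1a3, Slc1a2 and Slc1a1 had means over lines of 0.39, 0.073 and -0.18, with Slc1a3 selected for its height. Slc1a2 lay above Slc1a1 in each line, and their ranges over lines did not overlap. Other processing ended that, since in line 3 Slc1a2 and Slc1a1 had -0.054 and -0.028 with normexp, -0.044 and -0.022 with loess, and -0.058 and -0.028 in the authors' value table. In windows the order was Slc1a3 with 0.10 ± 0.014, Slc1a2 with 0.093 ± 0.016 and Slc1a1 with 0.017 ± 0.022 (SD, n = 3 each). Windows of Slc1a3 and Slc1a2 overlapped, with 0.087, 0.11 and 0.11 for Slc1a3 and 0.11, 0.082 and 0.085 for Slc1a2 in lines 1, 2 and 3. Both were among the 6.32% of gene windows at 0.08 or more in all 3 lines. Of all gene windows, 8.21% were as high as that of Slc1a3 or higher, and 28 of its 81 probes lay in the stretch. With 250 kb on each side, the Slc1a3 window averaged 0.29, and with 1 Mb it averaged 0.035.

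The other 4 genes of the family were read from 13 probes, and their means over lines lay between -0.047 and 0.20. The 0.39 of Slc1a3 was higher, but Slc1a3 was selected for its height. Slc1a4, encoding the neutral amino acid exchanger ASCT1, lies on chromosome 11 and averaged -0.041, 0.059 and -0.030 in lines 1, 2 and 3 over 3 probes (limma adjusted p = 0.949). Slc1a6, encoding EAAT4 of Purkinje cells, lies on chromosome 10 and averaged -0.029, -0.081 and -0.029 over 4 probes (limma adjusted p = 0.412). Slc1a7, encoding EAAT5 of the retina, lies on chromosome 4 and averaged 0.28, 0.24 and 0.068 over 4 probes, or 0.197 ± 0.11 (SD, n = 3; limma adjusted p = 0.0270), above liver in 3 of 3 lines, where 14.2% of all genes passed above 0. That call was lost without line 2 (0.133), with lines 2 and 3 counted as 1 animal (0.0616), with genes of 1 or 2 probes added to the table (0.0684) and in the authors' value table (0.377), all limma adjusted p-values. Slc1a5, encoding the glutamine transporter ASCT2, lies on chromosome 7, had 2 probes with 0.070, 0.30 and 0.23, and was not tested.

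Windows around these 4 genes had other values than the genes. Slc1a5 windows averaged 0.056, 0.12 and 0.12 in lines 1, 2 and 3 (limma adjusted p = 0.000322), and those of Slc1a4 averaged 0.097, 0.053 and 0.086 (limma adjusted p = 0.00341). Windows of Slc1a7 averaged 0.051, 0.071 and -0.0099 (limma adjusted p = 0.180) and those of Slc1a6 averaged -0.045, -0.038 and -0.066 (limma adjusted p = 0.0660). Slc1a6 was the lowest of the 7 in each line and did not pass, while 10.3% of all windows passed below 0.

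**Figure D4:**
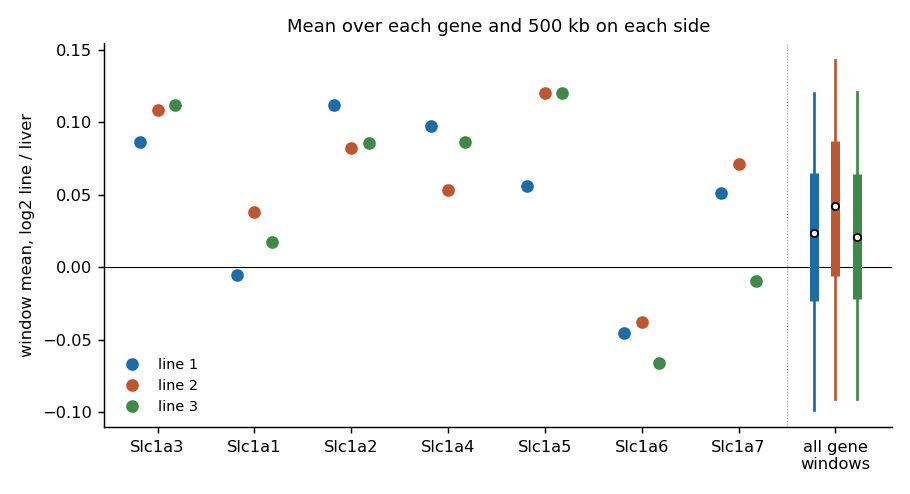
Mean log2 of line over liver over each SLC1 gene with 500 kb on each side, with a point for each line, beside all 21096 gene windows (open point for the median, thick bar from the 25th to the 75th percentile, thin line from the 5th to the 95th). Slc1a3 lies at 0.087 to 0.11 and Slc1a2 at 0.082 to 0.11, both within the 5th to 95th percentile of each line.

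The 5 windows whose values over the 3 lines lay nearest those of Slc1a3 were found by Euclidean distance, leaving out chromosome 15 within 5 Mb. They were Zbtb8a, AK079836 and AK163989 on chromosome 4, Baalc on chromosome 15 and Gsdma on chromosome 11. Zbtb8a, a zinc finger gene, had 0.086, 0.11 and 0.11 in lines 1, 2 and 3, at a distance of 0.0024. The farthest of the 5, AK163989, had 0.082, 0.10 and 0.11, at 0.0082. The windows on chromosome 4 belong to adjacent genes and share probes, and likeness over 3 lines is a weak measure.

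Genes that make, move or sense glutamate were read in 4 lists. Of 52 genes, 50 had a probe and 35 had the 3 probes needed for the test, with 4 above and 6 below 0 past the threshold, or 28.6%, against 24.1% of all genes tested. Their median mean was -0.034, against 0.011 over all genes. With the lines of the shared animal averaged, 0 of the 35 passed in limma, with 8 at an unadjusted p under 0.05. Leaving out line 1 gave 12 genes, leaving out line 2 gave 2, and leaving out line 3 gave 3. Over the 4 lists together, the share past the threshold was thus near that of all genes, and it depended on single lines. Single lists, each with 15 tested genes or fewer, ran from 13.3% to 54.5%.

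Among 11 genes of glutamate and glutamine handling, 3 passed above and 3 below 0, or 54.5%. Of all genes tested, 24.1% passed, with 14.2% above and 9.95% below 0. Glud1, glutamate dehydrogenase, had 0.38, 0.17 and 0.12 in lines 1, 2 and 3, a mean of 0.22 ± 0.14 (limma adjusted p = 0.0241). Gad1, which makes GABA from glutamate, averaged 0.21 ± 0.047 (limma adjusted p = 0.0116), and the glutamine transporter gene Slc38a1 averaged 0.15 ± 0.048 (limma adjusted p = 0.0321). Folh1, whose enzyme releases glutamate from a brain dipeptide, averaged -0.16 ± 0.055, Aldh18a1, which takes glutamate towards proline, averaged -0.15 ± 0.081, and the vesicular transporter gene Slc17a8 averaged -0.13 ± 0.035 (SD, n = 3 each), with limma adjusted p of 0.0302, 0.0443 and 0.0479. With normexp, Gad1 averaged 0.11, Slc38a1 0.13 and Aldh18a1 -0.12 and did not pass (limma adjusted p of 0.0811, 0.0622 and 0.0790), and in the authors' value table Slc38a1 averaged 0.088 (limma adjusted p = 0.140).

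Of 15 ionotropic receptor genes, 0 passed above and 2 below 0 in limma, or 13.3%, against 24.1% of all genes tested. The 2 below 0 were the NMDA receptor subunit gene Grin3a, with -0.21, -0.13 and -0.14 in lines 1, 2 and 3, and the delta receptor gene Grid1, with -0.16, -0.11 and -0.15 (limma adjusted p of 0.0280 and 0.0362). Of 6 metabotropic receptor genes, Grm4 alone passed, or 16.7%, and it lay below 0. It had -0.31, -0.080 and -0.28 (limma adjusted p = 0.0206), while its window averaged 0.11, 0.13 and 0.039. Windows of Grin3a averaged -0.064, -0.049 and -0.0097 and those of Grid1 averaged -0.073, -0.051 and -0.066. With normexp, Grin3a averaged -0.031 (limma adjusted p = 0.641) and Grm4 averaged -0.081 (limma adjusted p = 0.280), and in the authors' value table Grin3a averaged -0.075 (limma adjusted p = 0.159), so these calls were lost. The largest of the 10 list means that passed was 0.22 for Glud1. The 0.39 of Slc1a3 was higher, but Slc1a3 was selected for its height, so this order carries no test.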

How the data were processed

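The scanner files hold spot intensity values that, per the file headers, were made by the authors with Agilent Feature Extraction 10.7.3.1, with background subtraction, detrending and linear dye normalisation on each array. They also hold a deposited log10 ratio of red over green. A separate value table, also log10 as deposited by the authors, had column medians of 0.000435, -0.00146 and -0.00271 and correlated with the scanner ratios at 0.867, 0.844 and 0.884. The positive correlations give its direction, and slopes on the scanner log10 ratio of 0.749, 0.707 and 0.783 are nearer to 1, a log10 scale, than log2 values would give. Its centring stays unknown. Line DNA was well above background at 99.0%, 99.0% and 99.4% of spots, liver DNA at 96.3%, 98.5% and 99.1%, and 0 spots were saturated.

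Control spots and outlier spots (160 to 179 per array) were left out, spots of 1 probe were averaged, and log2 of Cy5 over Cy3 from the deposited intensities was centred on the autosomal median. Gene means (at least 3 probes) and window means (at least 10 probes) were set against 0 in limma 3.58.1 under R 4.3.3, with lmFit, eBayes and 2-sided p-values adjusted by Benjamini-Hochberg over the whole table at a threshold of 0.05. Python 3.11.15 with numpy 2.4.6, pandas 2.3.3 and matplotlib 3.10.9 did the rest. Both procedures were run on simulated data with independent normal noise, a simpler setting than these arrays. The simulated step for the edges was higher than those traced here, so these runs do not give the error of the borders. Alternatives changed the background correction, normalisation, centring, filters, window size, lines and probes, and the closing section gives their effect. The number of arrays limits the precision.

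The members, gene lists and alternatives were chosen with earlier results of these data known. Named were all SLC1 genes, genes on the stretch with the first named gene on each side, list genes past the threshold (up to 15) and the 5 windows most like that of Slc1a3. Probe names are those of the array design, coordinates are mm9, and a table of GRCm38.p6 names served for synonyms. No batch could be compared, since all arrays lay on 1 slide with 1 dye order.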

Additional observations from a re-analysis of the deposited data

How the results depend on the processing

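No paired analysis was possible because the 3 lines make up 1 group. Of 261 alternative values, 49 kept their sign but no longer passed the threshold, 1 newly passed it and 6 had the opposite sign. Among those 6 were the 2 liver differences over the stretch without the 2 high probes. The Slc1a1 gene mean with normexp was also among them, and it no longer passed either. The mean of the stretch was 0.295 to 0.358 when a line was left out and 0.266 without the 2 high probes, an alternative chosen after the data were seen. Its traced length in line 1 was 643.9 kb with normexp, 561.5 kb with loess and 570.0 kb in the authors' value table. In line 2 it was 9911 kb in a 10 Mb span, 486.3 kb with normexp, 408.0 kb with loess, 491.7 kb in the value table, and 484.0 kb without dim probes or without the 2 high probes. None of the alternatives moved the length in line 3 by over 1.5 times. The Slc1a3 window mean was 0.293 with 250 kb, 0.035 with 1 Mb, 0.075 without the 2 high probes, 0.086 with loess and 0.068 with centring on the own chromosome. The Slc1a3 gene mean was 0.26 as a median, 0.275 without the high probes, 0.302 in the value table and 0.280 without dim probes. The Slc1a1 window mean was -0.0056 as a median, -0.0021 with 1 Mb, -0.0046 with centring on the own chromosome and 0.073 with normexp (limma adjusted p = 0.0106), and 0.0059 to 0.028 when a line was left out. The Slc1a1 gene mean was -0.230 to -0.107 when a line was left out, -0.211 with lines 2 and 3 averaged as 1 animal, -0.176 with at least 1 probe per gene (limma adjusted p = 0.0984), -0.030 with loess, -0.044 in the value table and 0.023 with normexp. The causes were not tested.

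Over all genes, limma calls numbered 1082 to 3170 when a line was left out, 725 with the lines of the shared animal averaged, 4766 of 21138 genes with at least 1 probe and 1498 of 5920 with at least 5, against 2284. Windows called numbered 5422 to 8269 when a line was left out, against 9276, and list genes numbered 2 to 12, and 0 with lines 2 and 3 averaged as 1 animal, against 10. Gene calls split into 854 above and 1104 below 0 in the value table, against 1343 and 941 as reported, and window calls into 4492 and 3771, against 7100 and 2176. After correction for local gene number, 3376 windows passed above and 2823 below 0. With 3 arrays from 2 animals and probes spread by 0.23 to 0.38, borders could not be placed to a probe.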
